A study of Homo sapiens with 4 samples.

Results

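Cytosolic heat shock proteins are molecular chaperones that hold and refold other proteins. The 70-kilodalton chaperones (HSP70) bind unfolded stretches with the help of J proteins and are reset by nucleotide exchange factors, the 90-kilodalton chaperones (HSP90) mature kinases and hormone receptors, and small heat shock proteins keep damaged proteins from clumping. In stressed cells heat shock factor 1 (HSF1) binds short repeated elements before its target genes and raises their transcription. Tumour cells often hold high levels of these chaperones without any heat.

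The 10 genes described here were chosen by name from the 58735 genes measured. They are the regulator HSF1, the stress-inducible HSP70 genes HSPA1A and HSPA1B, the constitutive HSP70 gene HSPA8, the HSP90 genes HSP90AA1 (inducible) and HSP90AB1 (constitutive), the co-chaperones HSPH1, DNAJB1 and BAG3, and the small heat shock gene HSPB1. Of these, 9 had a mean level of at least 1 FPKM over all libraries and so belonged to the 12949 genes tested. HSPA1A did not pass. FPKM are fragments scaled to the length of the gene and to a library size, which here differed from the reads on genes.

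RNA was sequenced from U251 and U87, which are established human glioblastoma (GBM) cell lines. Control cells received no brusatol (Bru), a compound from the seeds of Brucea plants. Bru cells were treated with it for 48 h at the IC50, an inhibitory concentration whose value for the sequenced cells is not given. The paper's viability time course used a higher concentration for U251 than for U87. If the sequenced lines also differed in dose, that difference cannot be told apart from the one between the lines. The labels name no engineered change in either line. With 1 library for each line and condition, 4 in all, no spread between cultures can be had, and no per-line difference below has a replicate test.

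Between 17083896 and 21453561 reads fell on genes in a library. VIM and CD44, which mark many GBM lines, were above 90 FPKM in every library, while SOX2 was at 129 and 91.2 FPKM in U251 Control and Bru and at 0 and 0.0457 FPKM in U87. NES, a neural progenitor gene, was at 125 and 50.6 FPKM in U251 and at 1.46 and 0.569 FPKM in U87. The glial genes S100B and CHI3L1 were below 1 FPKM in all 4 libraries, and GFAP stayed under 3 FPKM. Of 12 markers of other cell types, 2 reached 1 FPKM in U251 and 1 did in U87. In U251 Control and Bru these were KRT18 (epithelial), at 9.67 and 14.3 FPKM, and SYT1 (neuronal), at 6.02 and 4.18 FPKM. In U87 Control and Bru it was SYT1, at 2.22 and 1.73 FPKM. The summed level of those 12 went from 16.1 to 18.7 FPKM in U251 and from 4.52 to 3.34 FPKM in U87. PTPRC, AIF1 and MOG, which define immune cells, microglia and oligodendrocytes, had at most 3 reads each in any library. Other markers of such cells had more reads in U87 Control and Bru, at 110 and 87 for MBP (oligodendrocytes) and 20 and 16 for CD68 (macrophages), all below 1 FPKM. What part, if any, these marker differences had in the values below was not tested.

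The upstream sequences show how alike HSPA1A and HSPA1B are before their starts and where letters of the element bound by HSF1 are found. Sequences are from the RefSeq promoter table (GRCh38.p14), which covers 250 bases before to 50 bases after each start and holds 14 windows for 9 of the 10 genes. HSF1 has none there. All are written 5′ to 3′ on the strand of the gene, and capitals mark matches to GAANNTTC or TTCNNGAA, the 2-unit form of the heat shock element. Both strands read the same letters, because each form is its own reverse complement, and matches may overlap. The HSPA1A and HSPA1B stretches cover chr6:31815377-31815463 and chr6:31827573-31827659, both on the plus strand, and differ at 3 of 87 bases.
HSPA1A: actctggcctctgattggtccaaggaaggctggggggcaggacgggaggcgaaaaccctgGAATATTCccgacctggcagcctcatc
HSPA1B: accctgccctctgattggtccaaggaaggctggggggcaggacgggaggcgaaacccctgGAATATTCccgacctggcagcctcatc
Over the full 250 bases before the start, 94.4% of aligned bases were identical.

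The 2-unit element was found in at least 1 window of 7 of the 9 genes with a window, against 16.2% of all 27305 gene symbols in the table. HSPH1 and BAG3 were without it. The longer 3-unit form, which is GAANNTTC followed at once by NNGAA or TTCNNGAA followed by NNTTC, was in HSPA8, HSP90AA1 and HSP90AB1, and in 0.608% of all symbols. Known targets of HSF1 are among these genes, so their high share follows from how they were chosen and is no finding about them. The members with several windows were given several chances for a match, and a match says only that these letters are present. For each of the other genes 1 stretch upstream of a start is shown, with the 3-unit form where the gene has it, because these genes differed in direction with Bru in U251, as given further on. They lie at chr11:123062171-123062200 (minus strand) for HSPA8, chr14:102087112-102087141 (minus) for HSP90AA1, chr6:44247822-44247851 (plus) for HSP90AB1, chr19:14518426-14518455 (minus) for DNAJB1 and chr7:76302480-76302509 (plus) for HSPB1.
HSPA8: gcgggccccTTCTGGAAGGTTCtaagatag
HSP90AA1: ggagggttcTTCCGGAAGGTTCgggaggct
HSP90AB1: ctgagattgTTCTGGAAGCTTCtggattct
DNAJB1: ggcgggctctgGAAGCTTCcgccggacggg
HSPB1: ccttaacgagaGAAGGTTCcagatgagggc

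In the Control libraries the 10 genes differed widely in level per unit of length, from 0.845 FPKM for HSPA1A to 615 FPKM for HSP90AB1 in U251. HSP90AB1, HSP90AA1, HSPB1 and HSPA8 made up 91.1% of the summed FPKM of the 10 genes in U251 Control and 90.2% in U87 Control. HSP90AB1 ranked 29 among all genes in U251 Control, and HSP90AA1 ranked 32 in U87 Control. The summed level in U251 was 1824 FPKM in Control and 1920 in Bru cells, and in U87 it was 2236 in Control and 2275 in Bru cells. Both Bru sums were above the Control sum of the same line by a small margin, and both U87 sums were above both U251 sums. The 10 genes took between 0.645% and 0.879% of the reads on genes.

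Before Bru, most of these genes were higher in U87 than in U251. The log2 ratio of U87 Control to U251 Control was 0.79 for BAG3, 0.67 for HSPA8, 0.62 for HSPA1B, 0.59 for HSPH1, 0.47 for HSP90AA1, 0.46 for HSF1 and 0.27 for HSPB1. It was -0.06 for HSP90AB1. DNAJB1, at -0.02, and HSPA1A, at -0.26, had 95% counting intervals that included 0. These intervals take the reads of a gene in the libraries compared, put an exact (Clopper-Pearson) interval on their split, and express it as a log2 ratio, so they cover counting error only. The difference between cultures is left out, so an interval that excludes 0 does not show a difference between conditions.

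**Figure D1:**
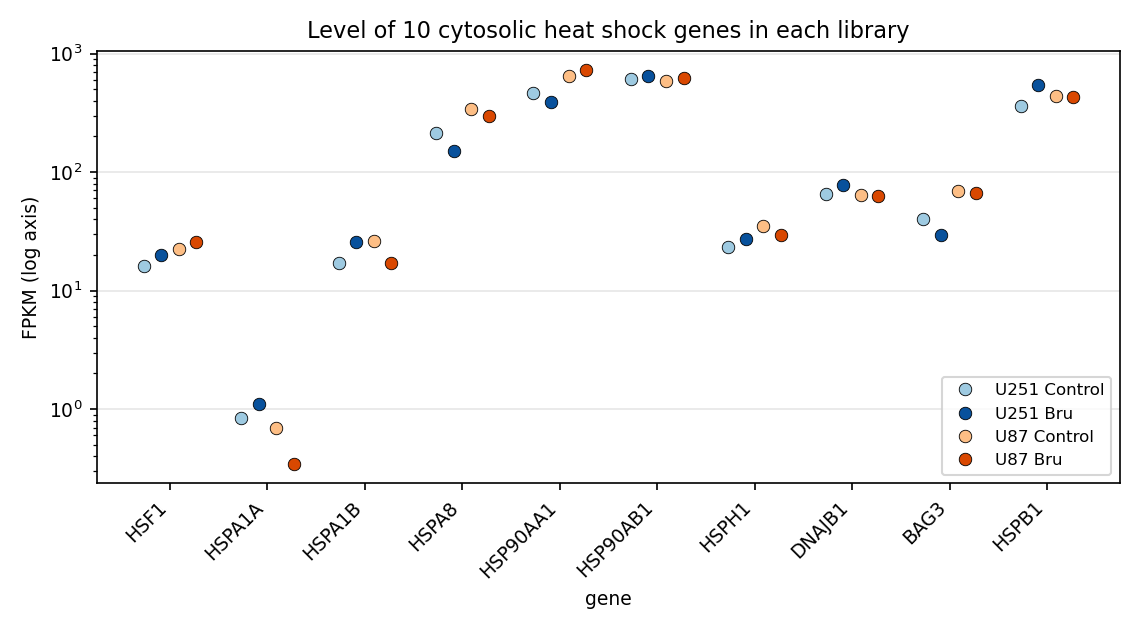
FPKM of each of the 10 genes (log axis) in the 4 libraries, with 1 point per library. HSP90AA1, HSP90AB1, HSPB1 and HSPA8 lie above 150 FPKM in all libraries, HSPA1A lies near or below 1 FPKM, and the order of the 4 points differs from gene to gene.

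The question of the series was how the transcripts of each line differ after Bru. None of the 10 genes differed more than 2-fold between Bru and Control in either line, where 8.8% of all tested genes in U251 (3.36% higher and 5.44% lower) and 3.34% in U87 (1.92% higher and 1.41% lower) did so. In U251 no gene passed 1.5-fold (background 26.8%, of which 11.3% higher and 15.6% lower), although HSPB1 and HSPA1B, at 1.499-fold and 1.496-fold on FPKM + 0.1, lay just under it. In U87, HSPA1B and HSPA1A, which is not among the tested genes, were lower by more than 1.5-fold (background 4.49% lower) and none was higher (4.56% higher, 9.06% in either direction). The median log2 ratio over the 10 genes was 0.25 in U251 and -0.05 in U87, beside -0.03 and -0.04 over all tested genes. In U251, 7 were above 0 and 3 below, and in U87 3 were above and 7 below. Of all tested genes, 47.2% were above 0 in U251 and 42.3% in U87.

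The quartiles of all tested genes were -0.38 and 0.30 in U251, and those in U87 were -0.20 and 0.12, so the genes as a whole were spread more widely in U251. With counting error alone, 6 of the 10 genes were higher and 3 lower in U251, where 66.7% of all tested genes had an interval that excluded 0 (30.9% higher and 35.9% lower). In U87, 3 were higher and 4 lower, against 43.7% of all tested genes (15.7% higher and 28% lower).

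**Figure D2:**
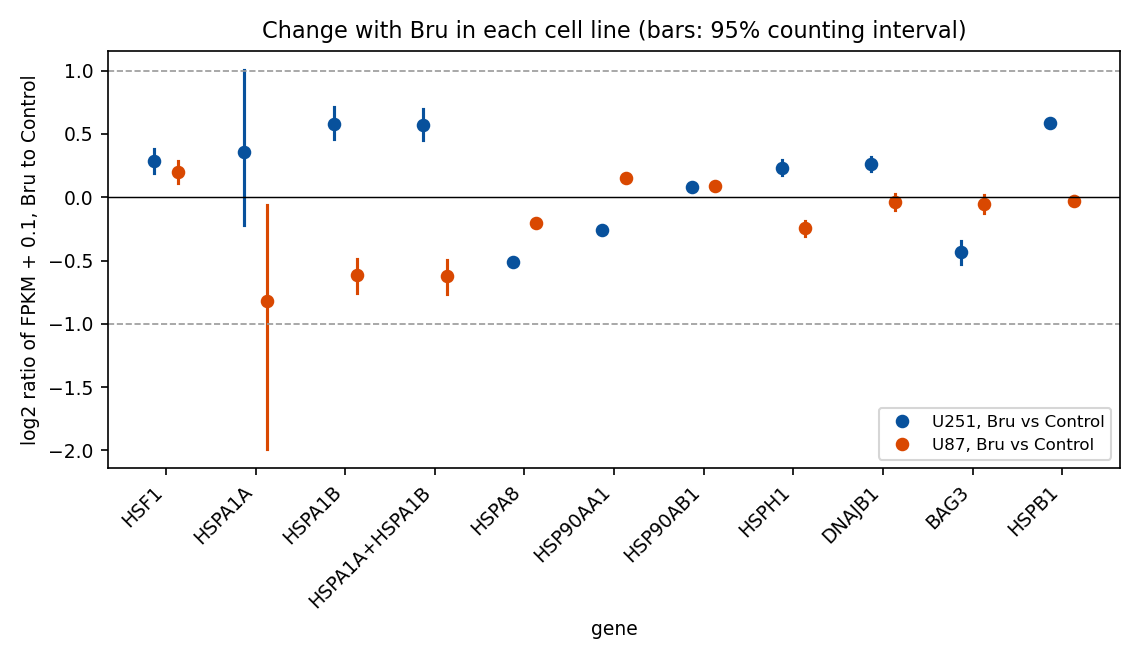
Bru against Control as a log2 ratio of FPKM + 0.1, for each gene and for the sum of HSPA1A and HSPA1B, in U251 (blue) and U87 (orange). Vertical bars are 95% counting intervals (some are smaller than the point) and dashed lines mark 2-fold. No point passes the dashed lines. HSPA1B, the sum of HSPA1A and HSPA1B, HSPH1 and HSP90AA1 have whole intervals on opposite sides of 0 in the 2 lines. The points of HSPA1A, DNAJB1 and HSPB1 also lie on opposite sides, with an interval that includes 0 in 1 line.

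HSF1, the transcription factor of the heat shock response (chromosome 8), was at 16.3 FPKM in Control and 19.8 in Bru cells of U251, and at 22.5 in Control and 25.8 in Bru cells of U87. It was higher with Bru in both lines, with log2 ratios of 0.28 (95% counting interval 0.19 to 0.38) in U251 and 0.20 (0.12 to 0.28) in U87. The lines differed by 0.08, with an interval from -0.04 to 0.21 that includes 0. HSF1 is switched on largely by changes in its protein, which these libraries do not measure.

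HSPA1B (chr6:31827735-31830255, plus strand, a single exon) encodes the stress-inducible HSP70 protein. Its level was 17.0 FPKM (900 reads) in U251 Control and 25.5 FPKM (1192 reads) in U251 Bru. In U87 it was 26.2 FPKM (1195 reads) in Control and 17.1 FPKM (749 reads) in Bru. The gene was thus higher with Bru in U251 and lower with Bru in U87, and U251 Bru and U87 Control lay close together. The log2 ratio was 0.58 (0.46 to 0.71) in U251, percentile 88.6 of all tested genes, and -0.62 (-0.75 to -0.49) in U87, percentile 3.96. The difference between the lines, 1.20 on the log2 scale with a counting interval from 1.02 to 1.39, was the widest of the 9 tested genes.

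HSPA1A (chr6:31815464-31817946, plus strand) encodes an almost identical protein and had far fewer reads, with 44 in Control and 51 in Bru cells of U251, and 31 in Control and 15 in Bru cells of U87. These correspond to 0.845, 1.11, 0.691 and 0.347 FPKM. The log2 ratio was 0.35 in U251, with an interval from -0.22 to 1.01, and -0.82 in U87, with an interval from -1.99 to -0.06. The depth did not allow a direction for this gene in U251.

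Reads were divided unevenly between the copies. HSPA1A held 4.66% (exact 95% interval 3.41 to 6.21) of the reads of the pair in U251 Control, 4.10% (3.07 to 5.36) in U251 Bru, 2.53% (1.72 to 3.57) in U87 Control and 1.96% (1.10 to 3.22) in U87 Bru. Of the 100-base stretches of the HSPA1A transcripts, 67.3% also occur in HSPA1B, and 72.7% of those of HSPA1B occur in other genes. The number of stretches found in no other gene was similar for the pair, at 810 and 661. How reads that match both copies were counted is not given in the sources used here, so the level of either copy alone is uncertain.

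The sum of both genes does not depend on that division, unless reads that match both copies were left out. The sum was 17.9 FPKM in Control and 26.6 in Bru cells of U251, against 26.9 in Control and 17.4 in Bru cells of U87. Its log2 ratio was 0.57 (0.45 to 0.70) in U251 and -0.63 (-0.76 to -0.50) in U87, and the lines differed by 1.20 (1.03 to 1.38). In GENCODE release 29, 36.5% of the exonic bases of HSPA1B are also exonic in another gene entry, AL671762.1, which had 0 reads in every library.

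HSPA8 (chr11:123057489-123063230, minus strand), the constitutive HSP70, was at 215 FPKM in Control and 151 in Bru cells of U251, and at 343 in Control and 297 in Bru cells of U87. It was lower with Bru in both lines, with log2 ratios of -0.51 (-0.54 to -0.48) and -0.21 (-0.23 to -0.18). The lines differed by -0.31 (-0.35 to -0.27). HSPA8 was the lowest of the 10 genes by log2 ratio in U251.

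With the sum of HSPA1A and HSPA1B higher and HSPA8 lower in U251, their ratio differed more between Bru and Control there than any single member did. The ratio of inducible to constitutive HSP70 (FPKM of HSPA1A and HSPA1B together over that of HSPA8) was 0.0832 in U251 Control and 0.177 in U251 Bru. The U87 ratios were 0.0786 in Control and 0.0586 in Bru cells. The Control ratios of the lines lay close together, and the ratio was 2.13 times as high with Bru in U251 (log2 1.09, interval 0.96 to 1.21) and 0.746 times as high in U87 (log2 -0.42, interval -0.56 to -0.29). Such a ratio within 1 library does not depend on how the library was scaled.

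HSP90AA1 (chr14:102080738-102139699, minus strand), the inducible HSP90, was at 468 FPKM in U251 Control and 391 in U251 Bru. In U87 it was at 648 FPKM in Control and 721 in Bru. The log2 ratio was -0.26 (-0.28 to -0.24) in U251 and 0.15 (0.14 to 0.17) in U87, which is the reverse of the order seen for HSPA1B. The lines differed by -0.41 (-0.44 to -0.39).

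HSP90AB1 (chr6:44246166-44253888, plus strand), the constitutive HSP90, varied least. It was at 615, 651, 589 and 626 FPKM in U251 Control, U251 Bru, U87 Control and U87 Bru. Its log2 ratio was 0.08 (0.06 to 0.10) in U251 and 0.09 (0.07 to 0.11) in U87, and the difference between the lines was -0.01 with an interval from -0.04 to 0.02. The ratio of HSP90AA1 to HSP90AB1 went from 0.761 to 0.601 in U251 (log2 -0.34, interval -0.37 to -0.31) and from 1.10 to 1.15 in U87 (log2 0.07, interval 0.04 to 0.09). HSP90AA1 was thus the less abundant of the pair per unit of length in both U251 libraries and the more abundant in both U87 libraries.

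**Figure D3:**
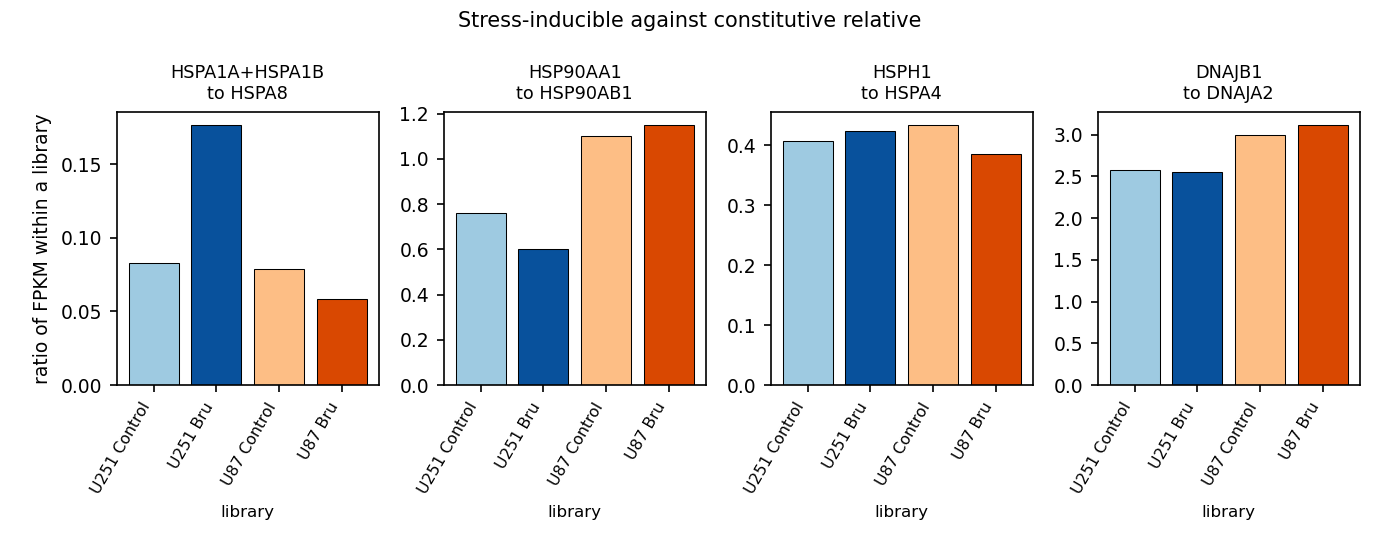
Ratio of the FPKM of a stress-inducible gene to that of its constitutive relative within each library (bars start at 0, and each panel has its own axis). The HSP70 ratio is 0.177 in U251 Bru and at most 0.0832 in the other libraries, while the DNAJB1 to DNAJA2 ratio stays between 2.55 and 3.12.

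HSPH1 (chr13:31134974-31162388, minus strand), the HSP110 protein that resets HSP70 by nucleotide exchange, was at 23.2 FPKM in U251 Control and 27.3 in U251 Bru. In U87 it was at 35.0 FPKM in Control and 29.5 in Bru. It had the same order as HSPA1B, higher with Bru in U251 (log2 0.23, interval 0.17 to 0.30) and lower in U87 (-0.24, interval -0.30 to -0.19), with a difference of 0.48 (0.39 to 0.56). Against HSPA4, its constitutive relative, the ratio differed by log2 0.06 (-0.02 to 0.14) in U251 and by -0.17 (-0.25 to -0.10) in U87. HSPA4 itself was at log2 0.18 (0.13 to 0.23) in U251 and -0.07 (-0.12 to -0.02) in U87.

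DNAJB1 (chr19:14514770-14529770, minus strand), a J protein that loads clients onto HSP70, was at 65.2 FPKM in Control and 78.3 in Bru cells of U251, and at 64.3 in Control and 62.7 in Bru cells of U87. Only the U251 Bru library stood above the other 3. The log2 ratio was 0.26 (0.21 to 0.32) in U251 and -0.04 (-0.10 to 0.03) in U87, and the lines differed by 0.30 (0.22 to 0.38). The ratio to DNAJA2, a J protein expressed without stress, had an interval that included 0 in both lines. Between Bru and Control this ratio differed by log2 -0.01 (-0.11 to 0.08) in U251 and 0.06 (-0.05 to 0.17) in U87. DNAJA2 itself was not steady, at log2 0.27 (0.20 to 0.35) in U251 and -0.10 (-0.19 to -0.003) in U87. DNAJB1 lies across TECR on the other strand, and the kit does not keep strand, so reads in the 228 exonic bases it shares with other genes cannot be told apart.

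BAG3 (chr10:119651370-119677819, plus strand), a nucleotide exchange factor that links HSP70 to small heat shock proteins and to autophagy, was at 40.2 FPKM in U251 Control and 29.7 in U251 Bru. In U87 it was at 69.5 FPKM in Control and 66.9 in Bru. The log2 ratio was -0.44 (-0.53 to -0.34) in U251 and -0.06 (-0.13 to 0.01) in U87, with a difference of -0.38 (-0.50 to -0.26). BAG3 was thus lower with Bru in U251, where HSPA1B and HSPB1 were higher and the constitutive HSP70 gene HSPA8 was lower (log2 -0.51).

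HSPB1 (chr7:76302544-76304295, plus strand), the small heat shock protein also called HSP27, was at 364 FPKM in U251 Control and 546 in U251 Bru. In U87 it was at 438 FPKM in Control and 429 in Bru. Its log2 ratio of 0.58 (0.55 to 0.62) was the highest of the 10 genes in U251, next to that of HSPA1B, whose interval overlaps it. The U87 ratio was -0.03 (-0.06 to 0.01), and the lines differed by 0.61 (0.56 to 0.66).

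Copies other than the HSPA1 pair took few reads. No other member shared more than 2.99% of its 100-base stretches with another gene, and the reads on the 29 pseudogenes named after a member came to at most 0.295% of those of the parent gene. HSP90AA1 and HSF1 share 197 and 139 exonic bases with WDR20 and DGAT1 on the other strand, which are 3.75% and 2.62% of their exonic bases.

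A response shared by both lines was tested with limma, fitted to log2(FPKM + 0.1) of the 12949 genes with the cell line as a covariate. This leaves 1 residual degree of freedom per gene, which is the difference in response between the lines. The eBayes step draws that spread toward a trend over all genes, which was given 5.89 prior degrees of freedom. The SE and p-values below therefore rest more on the trend than on the gene's own difference between the lines. No gene of the 12949 had an adjusted p under 0.05 (background 0%), and 14.2% had an unadjusted p under 0.05. Among the 9 tested members none had an unadjusted p under 0.05. The lowest adjusted p of limma was 0.445 for HSPA8, with a mean log2 ratio of -0.36 ± 0.20 (SE, 4 libraries), and the mean was 0.24 ± 0.16 for HSF1 and 0.28 ± 0.24 for HSPB1.

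Genes that work with the members were taken from 10 lists, which hold 90 gene entries, 75 of them tested. In U251, 1 of the 75 was higher and 2 were lower by more than 2-fold, and in U87 none was (background 8.8% and 3.34%, as above). None of the 75 was called by limma. The median log2 ratio over the 75 was 0.18 in U251 and -0.02 in U87.

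All 8 subunits of TRiC, the cytosolic chamber that folds actin and tubulin, were above 0 in U251 (median 0.29), against 4 of 8 in U87 (median 0.00). CCT7 went from 72.9 to 109 FPKM in U251 (log2 0.58) and from 139 to 141 in U87 (0.03). CCT8, at 0.47 and 0.07, and CCT2, at 0.30 and 0.10, had the same order of lines. The lowest of the 8 subunits in U251, at 0.05, had an interval that included 0. In all tested genes 47.2% were above 0 in U251 and 42.3% in U87.

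Of 14 HSP90 co-chaperones, 12 were above 0 in U251 (median 0.26) and 4 in U87 (median -0.05). The share of all tested genes above 0 was 47.2% and 42.3%. Some of the 12 were at 0.00 in U251, with an interval that included 0. CHORDC1, which assists HSP90 and is itself heat-inducible, went from 894 to 1424 reads in U251 (log2 0.83) and from 976 to 897 reads in U87 (-0.07). TOMM34, which hands mitochondrial precursors from HSP70 to HSP90, had log2 ratios of 0.65 and 0.24. SUGT1, an adaptor of HSP90, had 0.35 and -0.22.

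Among HSP70 partners, 9 of 13 tested J proteins were above 0 in U251 (median 0.09) and 6 of 13 in U87 (median 0.00). The share of all tested genes above 0 was 47.2% and 42.3%, and the U87 count lay near it. Some of the 9, at 0.08 and 0.16, had a U251 interval that included 0. Log2 ratios in U251 were 0.96 for DNAJB2, 0.89 for DNAJB4 and 0.84 for the ribosome-bound DNAJC2. In U87 they were -0.30, 0.24 and 0.07. The 8 BAG proteins and other HSP70 co-factors had medians of 0.21 and 0.00, with HSPBP1 at 0.39 and 0.10, BAG4 at 0.36 and -0.08, and BAG1 at 0.24 and 0.28.

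The list of other cytosolic HSP70 and HSP110 genes had a median of -0.11 over 7 tested entries in U251 and of -0.07 in U87. These entries include HSPA13, which is not cytosolic. HSPA2, best known from the testis, was low and went from 0.479 FPKM (58 reads) to 0.159 FPKM (17 reads) in U251, a log2 ratio of -1.16 on FPKM + 0.1, and from 2.34 to 1.57 FPKM in U87 (-0.54). HSPA13, a microsomal relative, was at -0.73 and -0.25. HSPA14, a ribosome-bound relative, has 2 entries under its name, at -0.16 and 0.25 in U251.

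HSPA6 is an HSP70 gene that most cells keep silent until strong stress, and it was singled out after its values were seen, because its mean level was below the filter. It had 8 reads (0.161 FPKM) in U251 Control and 92 reads (2.09 FPKM) in U251 Bru. In U87 it had 4 reads in Control and 8 in Bru. The log2 ratio on FPKM + 0.1 was 3.07 in U251, with a counting interval without pseudocount from 2.66 to 4.96, and 0.60 in U87, with an interval from -0.85 to 3.24. Of its 100-base stretches 27.6% also occur in HSPA7, a near copy with 0 reads in every library. Its upstream site with the 3-unit element, at chr1:161524457-161524486 (plus strand), is shown beside that of ZFAND2A, whose arsenite-inducible zinc-finger protein associates with the proteasome, which lies at chr7:1160349-1160378 (minus strand) and has the 2-unit form.
HSPA6: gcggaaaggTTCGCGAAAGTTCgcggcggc
ZFAND2A: cgaccggacacTTCGAGAAgggaagtggag

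ZFAND2A was the gene of the lists that was more than 2-fold higher in U251. It went from 6.21 to 16.5 FPKM in U251 (log2 1.40, interval 1.22 to 1.61) and from 5.65 to 7.28 FPKM in U87 (0.36, interval 0.11 to 0.62). It belongs to 9 other heat-inducible genes, whose medians were 0.25 in U251 and -0.05 in U87. MRPL18, a mitochondrial ribosomal protein, was at 0.90 and 0.28. SERPINH1, the collagen chaperone HSP47 of the endoplasmic reticulum, was in the other direction, from 19.3 to 10.7 FPKM in U251 (-0.85) and from 33.7 to 21.3 in U87 (-0.66).

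The other heat shock factors and their binding proteins had 3 tested genes, all below 0 in U251. HSF2 was at -0.13 and 0.04, HSF4 at -0.35 and 0.08, and HSBP1, which binds HSF1 and damps it, at -0.33 and -0.20. HSF1 had the opposite sign to all 3 in U251, but the interval of HSF2 there (-0.34 to 0.08) included 0. Of all tested genes, 47.2% were above 0 in that line. Of 8 other small heat shock genes only HSPB8, the partner of BAG3, passed the filter. It went from 7.94 to 11.5 FPKM in U251 (0.53) and from 57.2 to 59.2 in U87 (0.05).

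The relatives of the members in other compartments lay apart from each other. The 6 mitochondrial chaperones were all above 0 in U251 (median 0.34), and 5 of 6 were in U87 (median 0.17). The lowest of them in U251, at 0.05, had an interval that included 0 (-0.07 to 0.18). Above 0 were 47.2% of all tested genes in U251 and 42.3% in U87. HSPA9, the mitochondrial HSP70, was at 0.49 and 0.19, its exchange factor GRPEL1 at 0.63 and 0.06, and its J protein DNAJA3 at 0.69 and 0.32. The 6 relatives of the endoplasmic reticulum were all below 0 in both lines, with medians of -0.57 and -0.31. HSPA5 (BiP), the HSP70 of that compartment, was at -0.75 and -0.28, HSP90B1 (GRP94), its HSP90, at -1.03 and -0.30, and HYOU1 at -0.82 and -0.19.

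**Figure D4:**
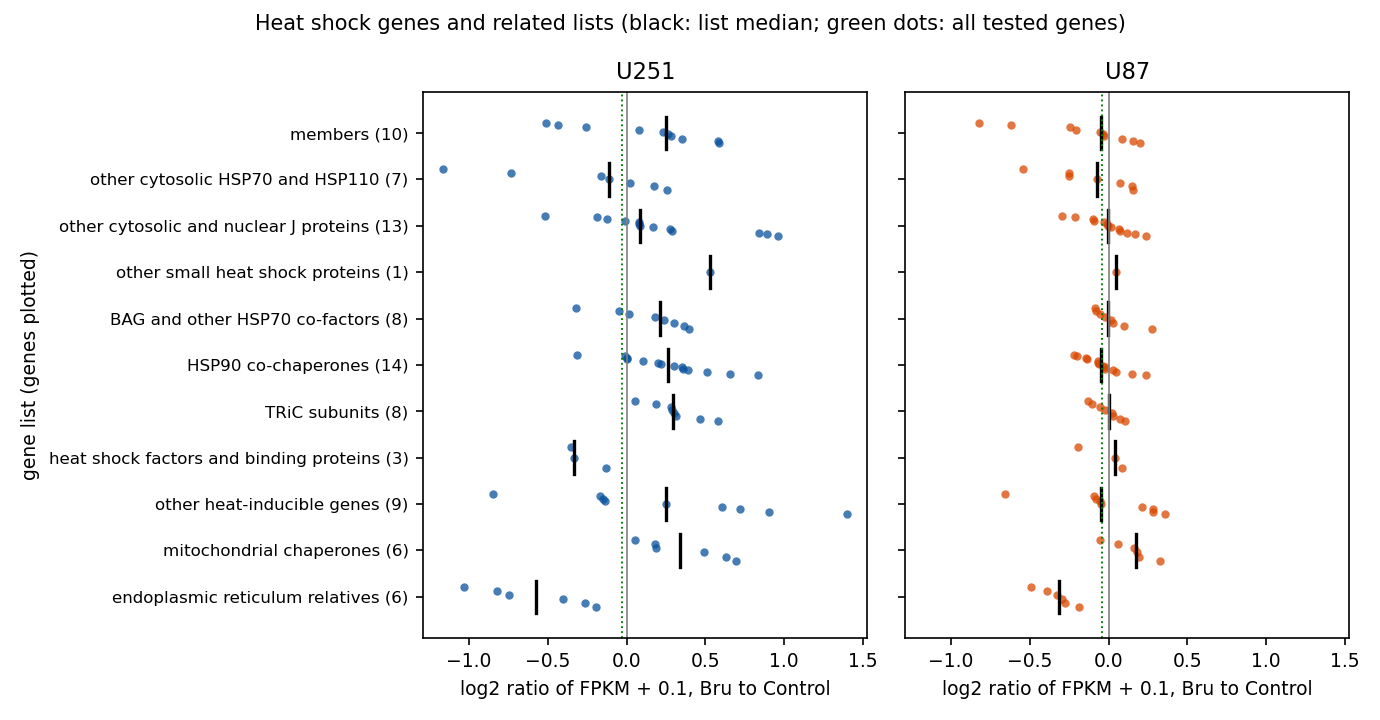
The log2 ratio of Bru to Control (FPKM + 0.1) in U251 and U87 for the 10 members and the 75 tested genes of the related lists, with 1 point per gene, the list median in black and the median of all tested genes as a dotted green line. The TRiC subunits and mitochondrial chaperones lie above 0 in U251, the relatives of the endoplasmic reticulum lie below 0 in both lines, and the points are spread less in U87.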

How the data were processed

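Total RNA was taken with Trizol, and libraries came from a NEB Next Ultra kit, which does not mark strand, and were read from both ends. The authors deposited FPKM per gene and library beside each gene's length. The submitters' processing notes name HISAT2 2.0.5, StringTie 1.3.3b, featureCounts 1.5.0-p3, DESeq2 1.16.1 and hg18, without their roles. All 58735 gene coordinates equal those of GENCODE release 29 (GRCh38), and coordinates here are on that build. How reads with several matches were counted is not given in the sources used here.

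In each library, FPKM times length moved in steps of fixed size (tolerance 0.05 reads, 100% of values whole), and the step gave the reads per gene and a library size of 17406238 to 20974002. This size was below the reads on genes in the Control libraries, at 20974002 against 21453561 in U251 and 18070193 against 18260975 in U87. In the Bru libraries it was above them, at 18533374 against 17847910 in U251 and 17406238 against 17083896 in U87. Ratios of Bru to Control are therefore lower than with the reads on genes as the size. How the size was set is not given in the sources used here. For a gene of 1 kilobase, 3 reads equal an FPKM of 0.143 to 0.172. The recovery, the intervals and limma were tested on simulated data. Those data held counting error and, for limma, an assumed noise in the response of each line. They cannot show how the methods behave under the real spread between cultures. Intervals, at 95%, cover counting error only, since each line and condition has 1 library. Reads are not independent molecules, so the intervals may be too narrow even for that error.

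Log2 ratios used FPKM + 0.1. Tested genes had a mean FPKM of at least 1. The difference between lines has a normal interval on the log ratio of reads. limma 3.58.1 in R 4.3.3 used eBayes with a trend and Benjamini-Hochberg adjustment at 0.05. Python 3.11.15, pandas 2.3.3, scipy 1.17.1 and Biopython 1.88 were used for the rest, the last for the alignment of promoters. Repeated stretches were counted over GENCODE 29 transcripts.

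The members and lists were chosen with earlier results of these data known. The genes named are the members and their sum, the genes of the within-library ratios, the cell type markers, and of each related list the tested genes past 2-fold in either line, filled up to 3 by the largest mean absolute log2 ratio. HSPA6 and HSPA7, and the overlapping genes AL671762.1, TECR, WDR20 and DGAT1, were chosen with their values in view. Alternatives were another pseudocount, scaling and filter, protein-coding genes only, no trend in limma, reads without length and the 3-unit element. Proteins were not used here.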

Additional observations from a re-analysis of the deposited data

Results flagged for a closer look

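For 3 genes and the HSPA1 sum, Bru and Control differed in opposite directions in U251 and U87, with counting intervals on either side of 0. Each line and condition has 1 library, so the difference between the lines was not tested against replicates. On the log2 scale, the ratio of Bru to Control in U251 minus that in U87 was 1.20 for HSPA1B, 1.20 for the sum of HSPA1A and HSPA1B, 0.48 for HSPH1 and -0.41 for HSP90AA1. HSPA1B was at 17.0 and 25.5 FPKM in U251 Control and Bru and at 26.2 and 17.1 FPKM in U87, so the order of the lines in Bru was the reverse of that in Control.

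The same held for 2 ratios within a library. For HSPA1A and HSPA1B together over HSPA8, the log2 change in U251 minus that in U87 was 1.51. For HSP90AA1 over HSP90AB1 it was -0.41.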

How the results depend on the processing

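The limma fit compares Bru with Control within each cell line. No pairing by replicate number could be made, because the labels carry none and each line and condition has 1 library. No other library can replace any of the 4, so none was left out. Only 2 log2 ratios of single members lay past 1.5-fold, those of HSPA1A and HSPA1B in U87. Neither they nor any member in U251 changed sign under another pseudocount (1 or 0.01) or scaling (median of all tested genes at 0, TPM, reads without mitochondrially encoded genes, upper quartile). BAG3, DNAJB1 and HSPB1 in U87, which lie near 0, changed sign under 1 or more of them. Of 66 values in each line, 16 in U251 and 12 in U87 moved by more than their counting error, and HSPA1A in U87 ranged from -0.97 to -0.33. The scalings moved the median of all tested genes by less than 0.1. The log2 ratio of HSPA1B ranged from 0.56 to 0.67 in U251, and in U87 it ranged from -0.62 to -0.56.

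The count of members higher by over 1.5-fold in U251 went from 0 to 2 (HSPA1B and HSPB1) with the median at 0, TPM, without mitochondrially encoded genes and with the upper quartile. The count lower by over 1.5-fold in U87 went from 2 to 1 with a pseudocount of 1, with the median at 0, without mitochondrially encoded genes and with the upper quartile. The member median in U251 was 0.33 without mitochondrially encoded genes and 0.34 with the upper quartile. Members with a heat shock element went from 7 to 3 with the 3-unit form.

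The share of all genes past 2-fold in U251, 8.8%, was 16.8% at a minimum FPKM of 0.1 and 4.76% with a pseudocount of 1, and past 1.5-fold it was 17.6% without a filter. In U87 the 3.34% past 2-fold became 12.6% at a minimum of 0.1, 1.1% at 5, 7.38% without a filter, 0.885% for protein-coding genes and 1.47% with a pseudocount of 1. The 9.06% past 1.5-fold became 23% at 0.1, 4.3% at 5, 13.9% without a filter, 4.46% for protein-coding genes and 4.92% with a pseudocount of 1. limma called 0 members in every setting, and over all genes it called 7 higher and 13 lower with a pseudocount of 1 and 34 higher and 98 lower at a minimum of 5. The difference between the lines moved by less than its interval for every member with reads only or with the median at 0. Depth limits HSPA1A, with 15 to 51 reads.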
